A study of Mus musculus with 6 samples.

Results

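The 45 genes described here encode the contractile apparatus of skeletal muscle and the factors that build it. They are 6 myosin heavy chains, 5 myosin light chains, 2 myosin binding proteins, 9 thin filament proteins, 8 proteins of the Z-disc, titin and desmin system, 5 of calcium release and uptake, 5 of energy supply and signalling, and 5 myogenic transcription factors. They were chosen by symbol, matched to Ensembl identifiers in GENCODE M21, and all 45 were found among the 55536 genes of the count matrix. All 45 had counts, and 44 passed the filter on low counts and were tested; Pax7 did not pass.

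The tissue was the perichondrium of limb bones, the connective tissue sheath around the growing skeleton, microdissected from mice at postnatal day 4. There were 3 libraries from Fbn1Scx-/- mice and 3 from WT mice. Fbn1 encodes fibrillin-1, the microfibril protein altered in Marfan syndrome, and Scx names scleraxis, a transcription factor of tendon and ligament cells, whose Cre driver is given in the title of one library. The labels do not name the allele, the deleted exons or the strain, nor say whether a library is one animal, so a p-value measures only the spread between these libraries. The Fbn1Scx-/- libraries are called mut-596, mut-597, mut-795 and the WT ones WT-596, WT-597, WT-795, after titles whose numbers the labels do not explain. Where 3 values are given for a genotype, they are in this order.

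Skeletal muscle does not belong to the perichondrium but is attached beside it. Its fibres contract when myosin heads of the thick filament pull on actin of the thin filament, and the troponin and tropomyosin complex on actin admits them only when calcium has been released from the sarcoplasmic reticulum. Each fibre type uses its own set of myosin, troponin and light chain genes, slow or fast, and developing mouse muscle first uses the embryonic heavy chain Myh3 and the perinatal heavy chain Myh8 before the adult fast chains Myh1, Myh2 and Myh4 replace them. Muscle stem cells carry Pax7, and Myf5, Myod1, Myog and Myf6 are the basic helix-loop-helix factors that commit them to the lineage and drive fusion into fibres. These factors bind E-boxes, written CANNTG.

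The promoters of the 6 heavy chains are shown because these genes separate the developmental, adult fast and slow programmes, and that of Dmpk because it was the one member with no overlap between the groups. Each window is the 250 bases upstream of the RefSeq start in build GRCm38.p6, read 5′ to 3′ on the strand of the gene, and capitals mark CANNTG or TATAAA on either strand. Among the heavy chains 5 lie in a cluster on chromosome 11, all on the plus strand; the windows are chr11:67078050-67078299 for Myh3, chr11:67276874-67277123 for Myh8, chr11:67199852-67200101 for Myh1, chr11:67170777-67171026 for Myh2 and chr11:67237562-67237811 for Myh4. The window of the slow chain Myh7 is chr14:54994627-54994876 on the minus strand, and that of Dmpk is chr7:19083608-19083857 on the plus strand.
Myh3: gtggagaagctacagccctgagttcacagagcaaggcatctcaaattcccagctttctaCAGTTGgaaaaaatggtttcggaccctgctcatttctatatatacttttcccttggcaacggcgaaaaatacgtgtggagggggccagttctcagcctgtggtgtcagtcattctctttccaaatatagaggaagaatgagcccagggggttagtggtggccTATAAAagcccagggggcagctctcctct
Myh8: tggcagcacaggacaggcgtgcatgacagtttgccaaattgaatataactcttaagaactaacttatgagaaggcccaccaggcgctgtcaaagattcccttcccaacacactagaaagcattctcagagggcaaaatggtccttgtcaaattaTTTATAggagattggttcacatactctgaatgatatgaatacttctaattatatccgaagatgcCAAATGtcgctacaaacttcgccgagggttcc
Myh1: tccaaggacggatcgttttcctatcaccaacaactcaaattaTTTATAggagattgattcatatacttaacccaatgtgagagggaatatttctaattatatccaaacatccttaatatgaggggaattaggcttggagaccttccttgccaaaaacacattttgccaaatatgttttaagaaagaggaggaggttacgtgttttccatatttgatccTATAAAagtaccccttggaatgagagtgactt
Myh2: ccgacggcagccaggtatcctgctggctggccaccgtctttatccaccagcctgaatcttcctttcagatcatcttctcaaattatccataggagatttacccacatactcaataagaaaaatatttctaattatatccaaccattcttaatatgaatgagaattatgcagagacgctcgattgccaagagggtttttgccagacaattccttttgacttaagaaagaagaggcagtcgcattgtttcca
Myh4: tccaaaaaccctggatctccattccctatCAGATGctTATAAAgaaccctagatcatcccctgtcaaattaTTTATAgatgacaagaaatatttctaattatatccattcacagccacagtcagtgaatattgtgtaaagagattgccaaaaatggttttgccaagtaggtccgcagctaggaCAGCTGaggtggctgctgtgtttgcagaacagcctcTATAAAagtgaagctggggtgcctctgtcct
Myh7: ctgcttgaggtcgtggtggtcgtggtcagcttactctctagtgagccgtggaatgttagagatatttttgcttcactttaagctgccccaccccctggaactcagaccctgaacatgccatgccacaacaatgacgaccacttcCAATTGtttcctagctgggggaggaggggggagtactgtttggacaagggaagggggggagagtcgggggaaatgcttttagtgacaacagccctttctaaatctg
Dmpk: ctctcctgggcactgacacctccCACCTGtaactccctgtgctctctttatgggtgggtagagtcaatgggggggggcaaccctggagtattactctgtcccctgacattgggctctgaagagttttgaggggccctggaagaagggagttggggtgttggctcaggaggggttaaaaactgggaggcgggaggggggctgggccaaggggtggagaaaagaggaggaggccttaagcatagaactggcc

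RefSeq windows of this kind were at hand for 36 of the 45 members. CANNTG was in 80.6% of these 36 windows and in 66.1% of the windows of 27018 genes, both strands counted. The form CAGCTG, which is one of the sequences counted under CANNTG, was in 38.9% of the member windows and in 12.7% of all. TATAAA was in 19.4% against 13%, CATTCC (the MCAT element) in 27.8% against 12.6%, the MEF2 box in 13.9% against 3.02% and the CArG box in 11.1% against 1.41%. The 6 heavy chains differed among themselves in these letters. Myh4 held 3 TATAAA matches and Myh1 held 2, while Myh2 and Myh7 held none, and CANNTG was in the windows of Myh3, Myh8, Myh4 and Myh7 but not in those of Myh1 and Myh2. These are letter matches in a short window, given as a description. The windows follow RefSeq starts, taking the most upstream where a gene has several. The Myh1 window ends at 67200101, within the GENCODE gene that begins at 67200052. The Myh4 window ends at 67237811, before the GENCODE start at 67238029. The differences between the chains thus depend on the starts used.

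The libraries held 7209217 to 9720268 counts in Fbn1Scx-/- and 8019248 to 10316017 in WT. The targeted gene Fbn1 had 76, 45 and 69 counts in Fbn1Scx-/-, against 1255, 898 and 458 in WT, as the genotype labels say. Fbn1 was also the only gene of the 15712 tested that passed an adjusted p of 0.05 in edgeR's quasi-likelihood test with Benjamini-Hochberg adjustment. Xist was present at 6221 and 4024 counts in libraries mut-596 and mut-597 and at no more than 4 in the other 4 libraries, so sex is not balanced between the groups. Levels below are CPM, read counts relative to library size after TMM scaling, and log2 fold changes are Fbn1Scx-/- over WT from edgeR.

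Muscle RNA was present in all 6 libraries, and its amount differed more within the groups than between them. The 45 genes summed to 3965, 7708 and 7225 CPM in Fbn1Scx-/-, against 6757, 16328 and 5031 CPM in WT. Library WT-597 stood far above the rest, library mut-596 was the lowest, and the other 4 lay close together with the genotypes mixed. The means were 6299 ± 2036 CPM in Fbn1Scx-/- and 9372 ± 6086 CPM in WT (SD, n = 3 each), a ratio of 0.672, and without library WT-597 that ratio was 1.07. As a share of all counts the 45 genes took 0.389%, 0.713% and 0.723% in Fbn1Scx-/- and 0.786%, 1.68% and 0.453% in WT. In bulk tissue a library with fewer muscle cells and one with less muscle RNA per cell cannot be told apart.

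Other muscle genes varied over the libraries along with these 45, and the summed markers of the sheath varied less. A list of 65 further muscle genes, which shares none of the 45, summed to 1226, 1691 and 1542 CPM in Fbn1Scx-/- and 1309, 2504 and 1286 CPM in WT, with library WT-597 again the highest. In summed CPM the highest library was 4.12 times the lowest for the 45 genes and 2.04 times for the 65, but 1.08 times for 12 perichondrium and fibroblast markers, 1.22 times for 10 tendon and myotendinous junction markers and 1.43 times for 13 smooth muscle and pericyte markers. For the 8 fat markers that ratio was 2.58. Within the 65, Mef2c had the highest mean, 393 CPM, and ran opposite to the summed members, with a Pearson's r of -0.48. Single markers varied more than these sums. Taken gene by gene, the median ratio of highest to lowest library was 4.79 for the 44 members with a mean of at least 1 CPM, 1.61 for the perichondrium and fibroblast markers, 1.93 for the tendon markers and 2.12 for the smooth muscle markers. The same median was 3.45 for the other muscle genes, 3.24 for fat, 3.10 for cartilage and 3.09 for Schwann cell markers. For bone markers it was 2.03 and for endothelial markers 1.71. Strong variation over the libraries was thus not particular to muscle genes, though the fat and Schwann cell medians rest on 4 and 7 genes. Library WT-597 was the highest for 43 of the 44 members and 48 of 58 other muscle genes, against 25.7% of all tested genes. It was the highest for 1 of 11 cartilage, 1 of 4 fat and 3 of 7 Schwann cell markers. For tendon, endothelial and bone markers the counts were 4 of 10, 2 of 8 and 0 of 8. Library WT-597 was the highest for 3 of the 12 perichondrium and fibroblast markers, Col1a1, Clec3b and Pi16, and for 5 of the 13 smooth muscle markers. Col1a1, a chain of type I collagen, had 6863, 7638 and 5213 CPM in Fbn1Scx-/- and 9283, 13025 and 7118 CPM in WT, with a log2 fold change of -0.58. Acta2, smooth muscle actin, had 47.1, 95.1 and 60.3 CPM in Fbn1Scx-/- and 138, 163 and 61.5 CPM in WT, with a log2 fold change of -0.84. The part of such cells in the muscle values was not tested. Defining heart genes were at or near 0: the 8 cardiac markers together reached 2.91, 3.15 and 2.16 CPM in Fbn1Scx-/- and 3.51, 10.2 and 0.831 CPM in WT. Myh6 had 101 counts in library WT-597, and Nkx2-5 had no count in any library.

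**Figure D1:**
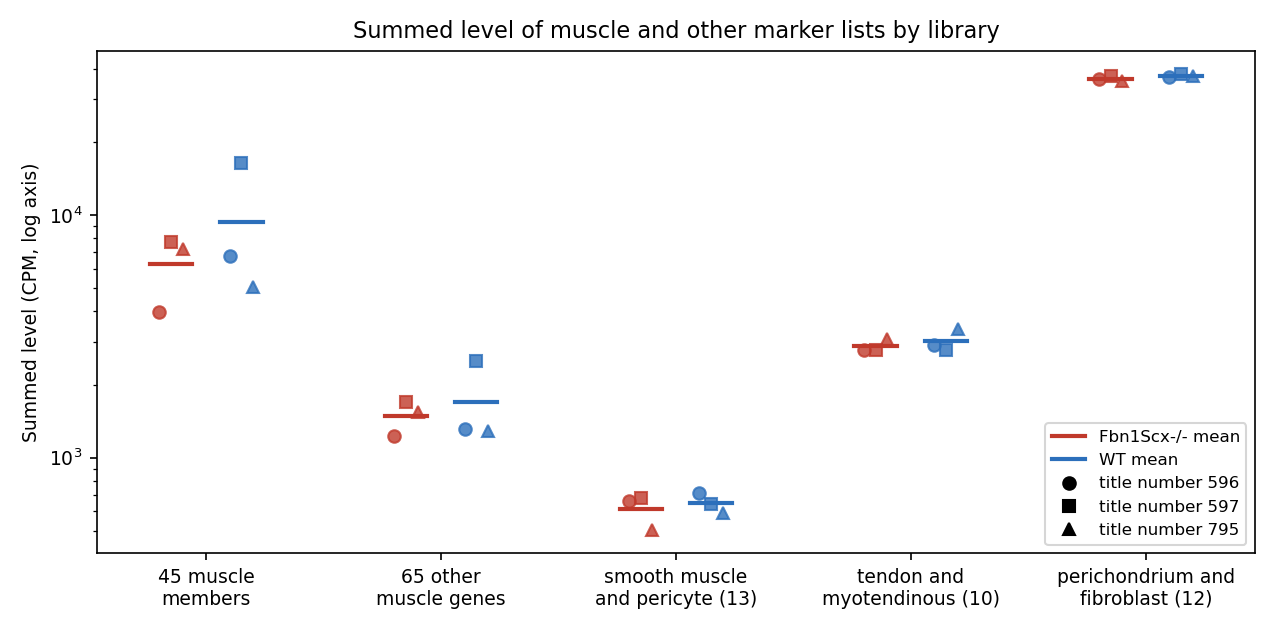
Summed CPM on a log axis for the 45 skeletal muscle genes, 65 other muscle genes and 3 lists of other cell types, with 1 point per library, shapes for the number in the title and lines for group means. The 45 genes run from 3965 CPM in library mut-596 to 16328 CPM in library WT-597, while the summed perichondrium and fibroblast markers differ by 1.08 times over the same libraries.

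None of the 44 tested members passed the adjusted p of 0.05, against 0.00636% of all tested genes, and their adjusted p-values in edgeR ran from 0.459 to 0.985. At an unadjusted p under 0.05 there were 14 members, all lower in Fbn1Scx-/-, against 7.12% of all genes in that direction and none against 3.37% in the other. The log2 fold change was below 0 for 40 of the 44, against 49.1% of all genes, and their median was -0.69, against 0.01 over all genes. DESeq2, run on the same counts, called no member, with 4 at an unadjusted p under 0.05 against 5.13% of all genes. With no filter beyond a count above 0, edgeR called 13 members, all lower, against 0.742% of all genes in that direction, and 30 members were at an unadjusted p under 0.05, against 5.89%.

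The lower values depended on which libraries were included. Library WT-597 was the highest of the 6 for 43 of the 44 tested members, against 25.7% of all genes, with Myf5 the exception. Library mut-596 was the lowest for 29 of the 44, against 23.9% of all genes. Without library WT-597 the median log2 fold change of the members was -0.08, with 27 of 44 below 0 against 48.7% of all genes and 3 at an unadjusted p under 0.05 against 4.54%. The 3 were Dmpk, which was lower in Fbn1Scx-/-, and Neb and Trdn, which were higher. Without library mut-596 the median was -0.47, with 6 members at an unadjusted p under 0.05, all lower, against 3.66% of all genes in that direction. Without both mut-596 and WT-597, a choice made after seeing the data, 4 members were at an unadjusted p under 0.05, against 2.78% of all genes. Of these Dmpk was lower in Fbn1Scx-/- and Myl1, Neb and Trdn were higher. Without library WT-795, the WT library lowest in muscle, 20 members passed the adjusted p in edgeR, all lower in Fbn1Scx-/-, against 5.73% of all genes in that direction, and the median was -1.03.

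**Figure D2:**
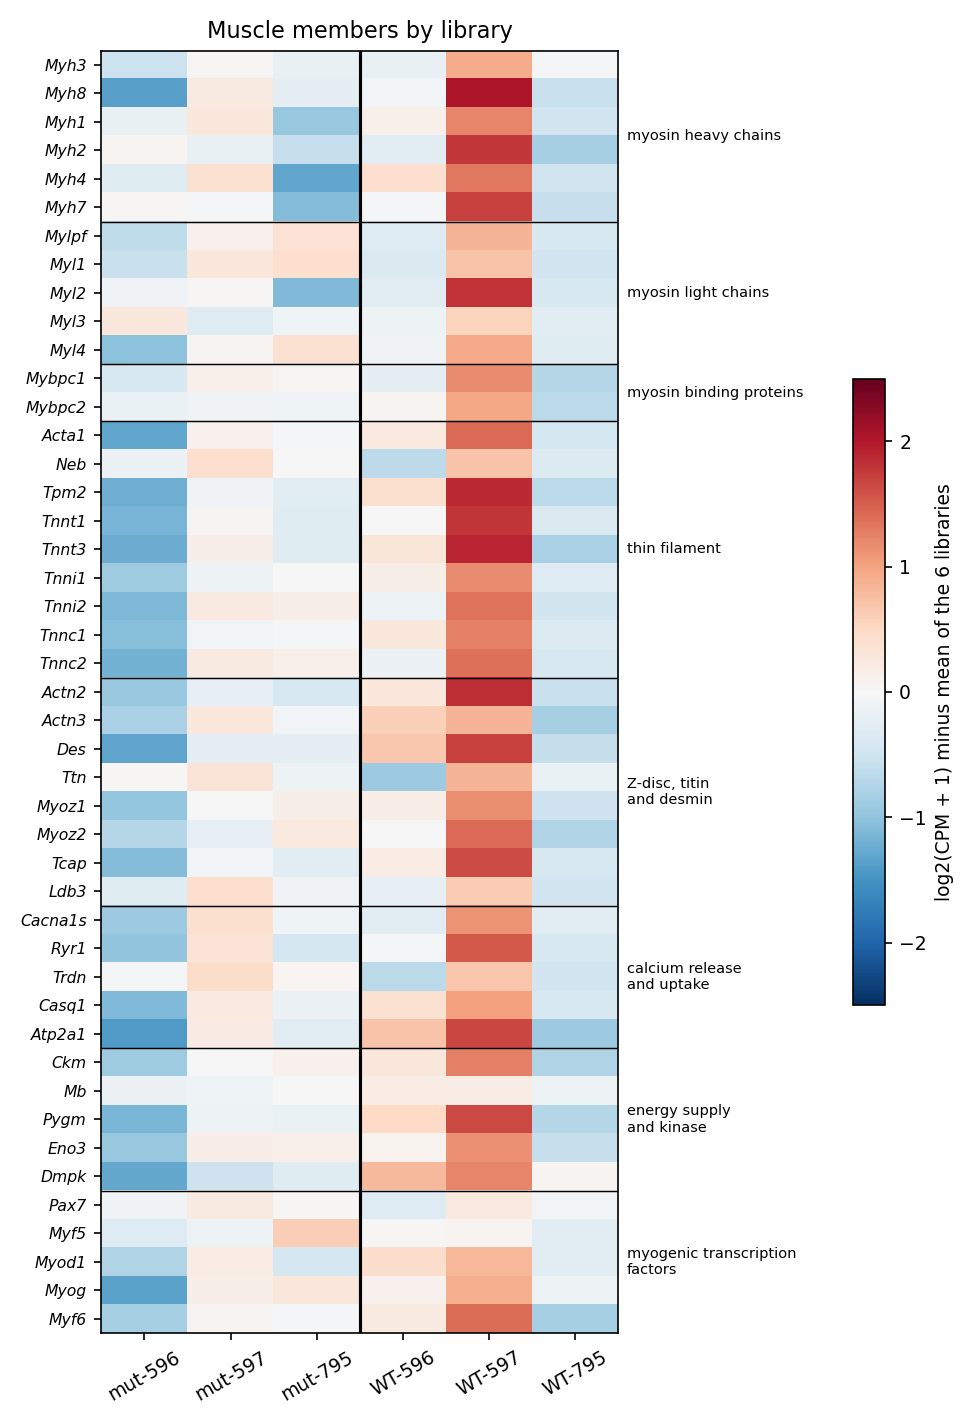
Level of each of the 45 genes by library, as log2(CPM + 1) minus the mean over the 6 libraries, ordered by role, with the Fbn1Scx-/- libraries (mut) left of the WT libraries. Most rows are deepest red in library WT-597 and deepest blue in library mut-596, and 43 of the 44 tested genes have their highest value in library WT-597.

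The 6 myosin heavy chains, the motors of the thick filament, all had log2 fold changes below 0, with a median of -0.93. Myh8, the perinatal chain (chromosome 11, 67277124 to 67308634), had 51.1, 155 and 111 CPM in Fbn1Scx-/-, against 126, 545 and 90.1 CPM in WT. Library WT-597 was above all others, and library WT-795 lay below both libraries mut-597 and mut-795, so the groups overlapped. Its log2 fold change was -1.26 (SE 0.54), and -0.06 without library WT-597. Myh3, the embryonic chain (chromosome 11, 67078300 to 67102291), was steadier, at 22.7, 33.7 and 28.9 CPM in Fbn1Scx-/- and 29.3, 63.7 and 32.3 CPM in WT. Apart from library WT-597 its values lay within 22.7 to 33.7 CPM, and its log2 fold change was -0.56 (SE 0.29).

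The adult fast chains were already present at this age. Averaged over 6 libraries and per kilobase, Myh8 had 29.2 CPM, Myh1 10.1, Myh3 5.82, Myh2 3.99, Myh4 3.34 and Myh7 1.92. Myh1, the 2X chain, had 48.1, 65.4 and 27.9 CPM in Fbn1Scx-/- and 59.3, 128 and 38.8 CPM in WT, with a log2 fold change of -0.68 (SE 0.38). Myh2, the 2A chain, had 20.5, 17.1 and 12.8 CPM in Fbn1Scx-/- and 16.1, 68.7 and 10.5 CPM in WT. Without library WT-597 the sign of Myh2 turned: its log2 fold change was 0.30, against -0.93 (SE 0.50) over all libraries. Myh4, the 2B chain of the fastest fibres, had 13.5, 22.3 and 6.27 CPM in Fbn1Scx-/- and 23.0, 43.8 and 11.6 CPM in WT. Myh7, the chain of slow fibres and of the heart ventricle (chromosome 14, 54970684 to 54994626), had 9.77, 9.15 and 4.01 CPM in Fbn1Scx-/- and 9.40, 33.3 and 6.10 CPM in WT. Myh4 and Myh7 were lowest in library mut-795, not in the library with the least muscle, and their log2 fold changes were -0.92 (SE 0.45) and -1.12 (SE 0.51).

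Set against one another per kilobase of transcript, the 6 heavy chains were led by the perinatal chain in every library. Myh8 took 30.6%, 50.9% and 57.9% of the heavy chain total in Fbn1Scx-/-, and 47.6%, 61.5% and 47.2% in WT. In all 6 libraries no other chain had a larger share, but in library mut-596 Myh1 was close, at 29.1%. There Myh8 had 387 counts and Myh1 364. That order depends on the transcript lengths used. With the union of the exons as the length, 11772 bases for Myh8 and 6353 for Myh1, Myh1 is ahead in that library. Myh3 took 13.9%, 11.3% and 15.3% in Fbn1Scx-/- and 11.3%, 7.33% and 17.3% in WT. The 3 adult fast chains together took 49.7%, 34.9% and 24.7% in Fbn1Scx-/-, against 37.7%, 27.4% and 32.4% in WT, and slow Myh7 took 5.78%, 2.96% and 2.06% in Fbn1Scx-/-, against 3.51%, 3.71% and 3.15% in WT. The groups overlapped for every chain. The heavy chain genes are close paralogs, and the sources used here do not say how reads matching several of them were counted, so these shares are uncertain to that extent. The same holds for Acta1 beside the other actins. The mean shares of Myh8 were 46.5% ± 14.2 in Fbn1Scx-/- and 52.1% ± 8.16 in WT (SD, n = 3 each).

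The library with the least muscle stood apart in its shares of Myh8, Myh1, Myh2 and Myh7. In library mut-596 the heavy chains had 1254 counts, of which Myh8 was 387, or 30.9% of counts with a 95% Wilson interval of 28.4% to 33.5%. In library WT-597 they had 9353 counts, of which Myh8 was 5780, or 61.8% with an interval of 60.8% to 62.8%. Myh2 took 12.4% of the length-corrected total in library mut-596, and 5.58% to 7.83% in the other 5 libraries. For Myh1 the share was 29.1% in library mut-596 and 14.6% to 22.6% in the other 5. Slow Myh7 took 5.78% in library mut-596 and 2.06% to 3.71% in the other 5. The Wilson intervals cover counting error only.

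**Figure D3:**
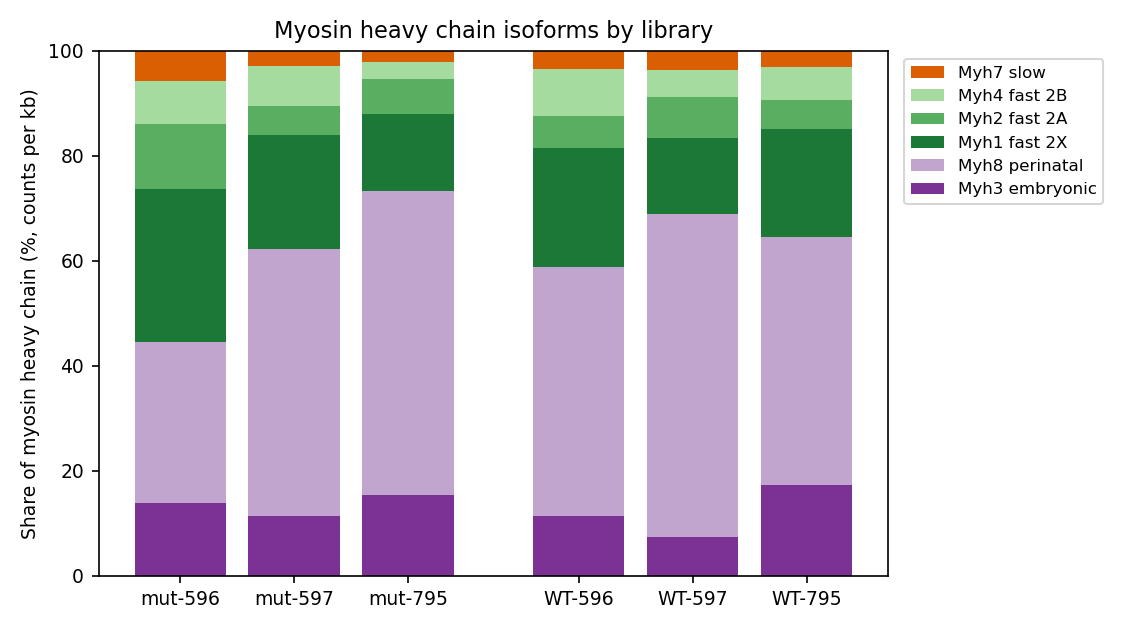
Share of each heavy chain in the summed heavy chain counts per kilobase, in percent, with 1 stacked bar per library. Myh8 takes 30.6% to 57.9% in the Fbn1Scx-/- libraries and 47.2% to 61.5% in the WT libraries, and Myh7 no more than 5.78% in any.

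The light chains, small subunits that brace the myosin neck, had the median log2 fold change closest to 0 of the 8 roles, at -0.17. Myl1, the fast essential light chain, had 631, 1123 and 1252 CPM in Fbn1Scx-/- and 730.5, 1534 and 667 CPM in WT. Libraries mut-597 and mut-795 exceeded libraries WT-596 and WT-795, and the log2 fold change was 0.04 (SE 0.34). Mylpf, the fast regulatory light chain, ranged from 550 to 1095 CPM in Fbn1Scx-/- and from 655 to 1539 CPM in WT. Myl4, the embryonic and atrial light chain, had 16.0, 35.4 and 44.3 CPM in Fbn1Scx-/- and 31.8, 66.1 and 27.0 CPM in WT. Myl2, the slow and ventricular regulatory light chain, had 11.8, 12.7 and 5.35 CPM in Fbn1Scx-/- and 10.3, 46.6 and 9.42 CPM in WT. It followed Myh7 in being high in library WT-597 alone, and its log2 fold change was -1.17 (SE 0.52) over all libraries but -0.02 without that one. Myl3, the slow essential light chain, ranged from 12.6 to 19.4 CPM in Fbn1Scx-/- and from 13.2 to 24.2 CPM in WT, and it overlaps Pth1r on the other strand.

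The myosin binding proteins, which sit along the thick filament, had log2 fold changes with SEs as large as the changes or nearly so. Mybpc1, the slow form, had 43.3, 61.9 and 58.2 CPM in Fbn1Scx-/- and 48.0, 129 and 34.2 CPM in WT. Mybpc2, the fast form, had 8.72, 9.15 and 9.05 CPM in Fbn1Scx-/- and 10.4, 20.2 and 5.82 CPM in WT. The Fbn1Scx-/- libraries of both genes lay between library WT-795 and library WT-597. Their log2 fold changes were -0.38 (SE 0.38) and -0.45 (SE 0.36).

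The thin filament held the most abundant RNA of the set and 5 of the 14 members at an unadjusted p under 0.05: Tpm2, Tnnt1, Tnnt3, Tnni1 and Tnnc1. Acta1, skeletal alpha-actin (chromosome 8, 123891769 to 123894751), had 677, 1817 and 1622 CPM in Fbn1Scx-/- and 1995, 4503 and 1239 CPM in WT. Library WT-795 lay below libraries mut-597 and mut-795, and the log2 fold change was -0.91 (SE 0.44). Averaged over 6 libraries, Acta1 came first per kilobase at 1366 CPM per kilobase, followed by Myl1 at 1232, Mylpf at 1182, the fast calcium sensor Tnnc2 at 748 and the fast inhibitory troponin Tnni2 at 494. Tpm2, beta-tropomyosin, had 104, 232 and 204 CPM in Fbn1Scx-/- and 326, 899 and 153 CPM in WT, and its log2 fold change was -1.35 (SE 0.48). Tnnt1, the slow troponin T, had 13.1, 32.2 and 24.6 CPM in Fbn1Scx-/- and 30.3, 108 and 23.6 CPM in WT, and its log2 fold change was -1.21 (SE 0.47). For both genes library WT-795 fell among the Fbn1Scx-/- values. Neb, the giant ruler of the thin filament, was the exception to the lower values, at 165, 243 and 180 CPM in Fbn1Scx-/- and 115, 299 and 143 CPM in WT, a log2 fold change of 0.08 (SE 0.31). The other troponins lay between Tnnt3 at -1.25 and Tnni2 at -0.62, with Tnnc1 at -0.90, Tnni1 at -0.79 and Tnnc2 at -0.67 on the log2 scale.

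The slow share of paired isoforms differed between the groups by less than the SD between the WT libraries. For the troponin C pair the difference, -0.711 points, was larger than the SD between the Fbn1Scx-/- libraries, 0.397. Tnnt1 took 14.5%, 13.6% and 14.2% of the Tnnt1 and Tnnt3 total per kilobase in Fbn1Scx-/-, against 11.7%, 13.5% and 18.3% in WT. The troponin T share averaged 14.1% ± 0.432 in Fbn1Scx-/- and 14.5% ± 3.41 in WT (SD, n = 3 each). Slow Tnni1 averaged 5.57% ± 1.03 of the troponin I pair in Fbn1Scx-/- and 6.27% ± 0.903 in WT, and slow Tnnc1 3.67% ± 0.397 of the troponin C pair in Fbn1Scx-/- and 4.38% ± 0.775 in WT. The fast form was therefore the main one for all 3 troponins. The opposite held for Mybpc1, which took 84.6% ± 2.22 of its pair in Fbn1Scx-/- and 83.6% ± 2.43 in WT. Myoz2 took 41.7% ± 3.89 of the Myoz1 and Myoz2 total in Fbn1Scx-/- and 40.3% ± 4.67 in WT. The slow light chains were the rarest, with Myl2 at 1.14% ± 0.696 of the total with Mylpf in Fbn1Scx-/- and 1.68% ± 0.746 in WT, and Myl3 at 1.51% ± 0.922 of the total with Myl1 in Fbn1Scx-/- and 1.56% ± 0.199 in WT. The groups overlapped for all 7 pairs.

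**Figure D4:**
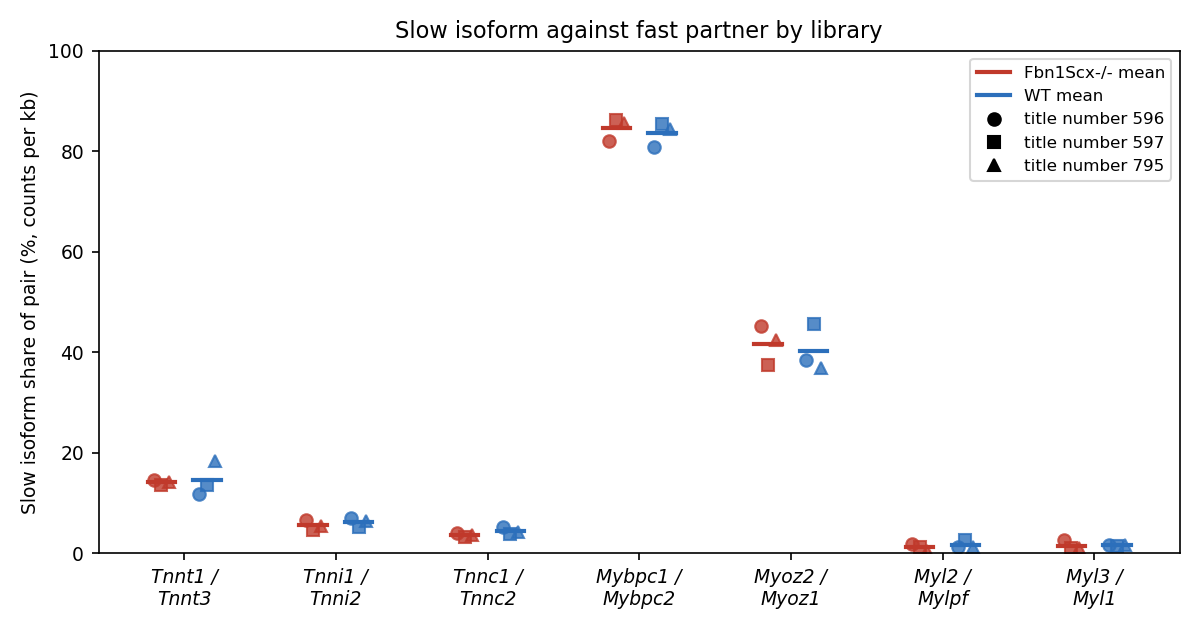
Slow isoform as a percent of each slow and fast pair, per kilobase, with 1 point per library. Troponin and light chain pairs sit below 20%, Myoz2 near 40% and Mybpc1 above 80% in both genotypes, with overlapping points in each pair.

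The Z-disc anchors the thin filaments of neighbouring sarcomeres, and all 8 of its members measured here had log2 fold changes below 0, with a median of -0.68. Des, desmin, the intermediate filament that links Z-discs to each other (chromosome 1, 75360329 to 75368579), had 42.4, 91.0 and 90.8 CPM in Fbn1Scx-/- and 173, 356 and 70.8 CPM in WT. Libraries WT-596 and WT-597 were above all Fbn1Scx-/- libraries and library WT-795 was not. Its log2 fold change was -1.42 (SE 0.44), and -0.74 without library WT-597. Actn2, alpha-actinin-2, had 21.5, 36.7 and 31.9 CPM in Fbn1Scx-/- and 51.3, 155 and 28.4 CPM in WT, with a log2 fold change of -1.39 (SE 0.46). Ttn, titin, the molecular spring from Z-disc to M-line, did not share that pattern. It had 548, 670 and 487 CPM in Fbn1Scx-/- and 283, 969 and 474 CPM in WT, so library WT-596 was the lowest of the 6, and its log2 fold change was -0.02 (SE 0.35). Ldb3, a PDZ and LIM protein of the Z-disc, was similarly flat, with a log2 fold change of -0.03 (SE 0.29). The remaining log2 fold changes were -1.16 for Tcap, the titin cap, -0.71 for Myoz2 and -0.65 for Myoz1, which tether calcineurin at the Z-disc, and -0.54 for the fast fibre actinin Actn3.

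Genes of calcium release and uptake had a median log2 fold change of -0.70. Atp2a1, the SERCA1 pump that returns calcium to the reticulum (chromosome 7, 126445858 to 126463108), had 28.1, 88.3 and 64.3 CPM in Fbn1Scx-/- and 127, 248 and 40.6 CPM in WT. Libraries WT-596 and WT-597 lay above all Fbn1Scx-/- libraries and library WT-795 lay among them, and the log2 fold change was -1.20 (SE 0.50). Ryr1, the calcium release channel, had 8.45, 22.9 and 12.9 CPM in Fbn1Scx-/- and 17.2, 53.2 and 13.2 CPM in WT, with a log2 fold change of -0.93 (SE 0.46). Trdn, triadin, which couples that channel to calsequestrin, ran the other way, with 78.7, 111 and 83.1 CPM in Fbn1Scx-/- and 49.9, 132 and 57.4 CPM in WT. Apart from library WT-597 all Fbn1Scx-/- values of Trdn exceeded the WT values, and its log2 fold change was 0.19 (SE 0.32) over all libraries and 0.75 without that library. Casq1, the calsequestrin of fast fibres, and Cacna1s, the voltage sensor, had log2 fold changes of -0.70 and -0.53.

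Among the genes of energy supply and signalling, all 5 had log2 fold changes below 0, and Dmpk and Mb differed in pattern from the rest. Dmpk, the kinase whose repeat expansion causes myotonic dystrophy (chromosome 7, 19083849 to 19093821), had 2.77, 5.40 and 6.38 CPM in Fbn1Scx-/-, against 15.1, 20.4 and 8.59 CPM in WT. Every Fbn1Scx-/- library was below every WT library, which held for 1 of the 44 members and for 6.22% of all tested genes. The log2 fold change of Dmpk was -1.60 (SE 0.36), the adjusted p in edgeR was 0.459, and without library WT-597 the log2 fold change was -1.31. The values rest on 21, 36 and 62 counts in Fbn1Scx-/- and 159, 216 and 62 counts in WT. Mb, myoglobin, which stores oxygen in oxidative fibres, was nearly level at 30.9, 31.9 and 33.9 CPM in Fbn1Scx-/- and 39.2, 39.3 and 31.3 CPM in WT. Its highest library was 1.27 times its lowest, against 10.7 times for Myh8. Ckm, muscle creatine kinase, had 114, 213 and 227 CPM in Fbn1Scx-/- and 259.5, 505 and 125 CPM in WT, with a log2 fold change of -0.68 (SE 0.40). Pygm, muscle glycogen phosphorylase, had 7.0, 15.3 and 14.7 CPM in Fbn1Scx-/- and 24.1, 54.5 and 9.84 CPM in WT, with a log2 fold change of -1.26 (SE 0.46). Eno3, muscle enolase, had one of -0.54 (SE 0.38). In Ckm and Pygm library WT-795 lay among the Fbn1Scx-/- libraries.

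**Figure D5:**
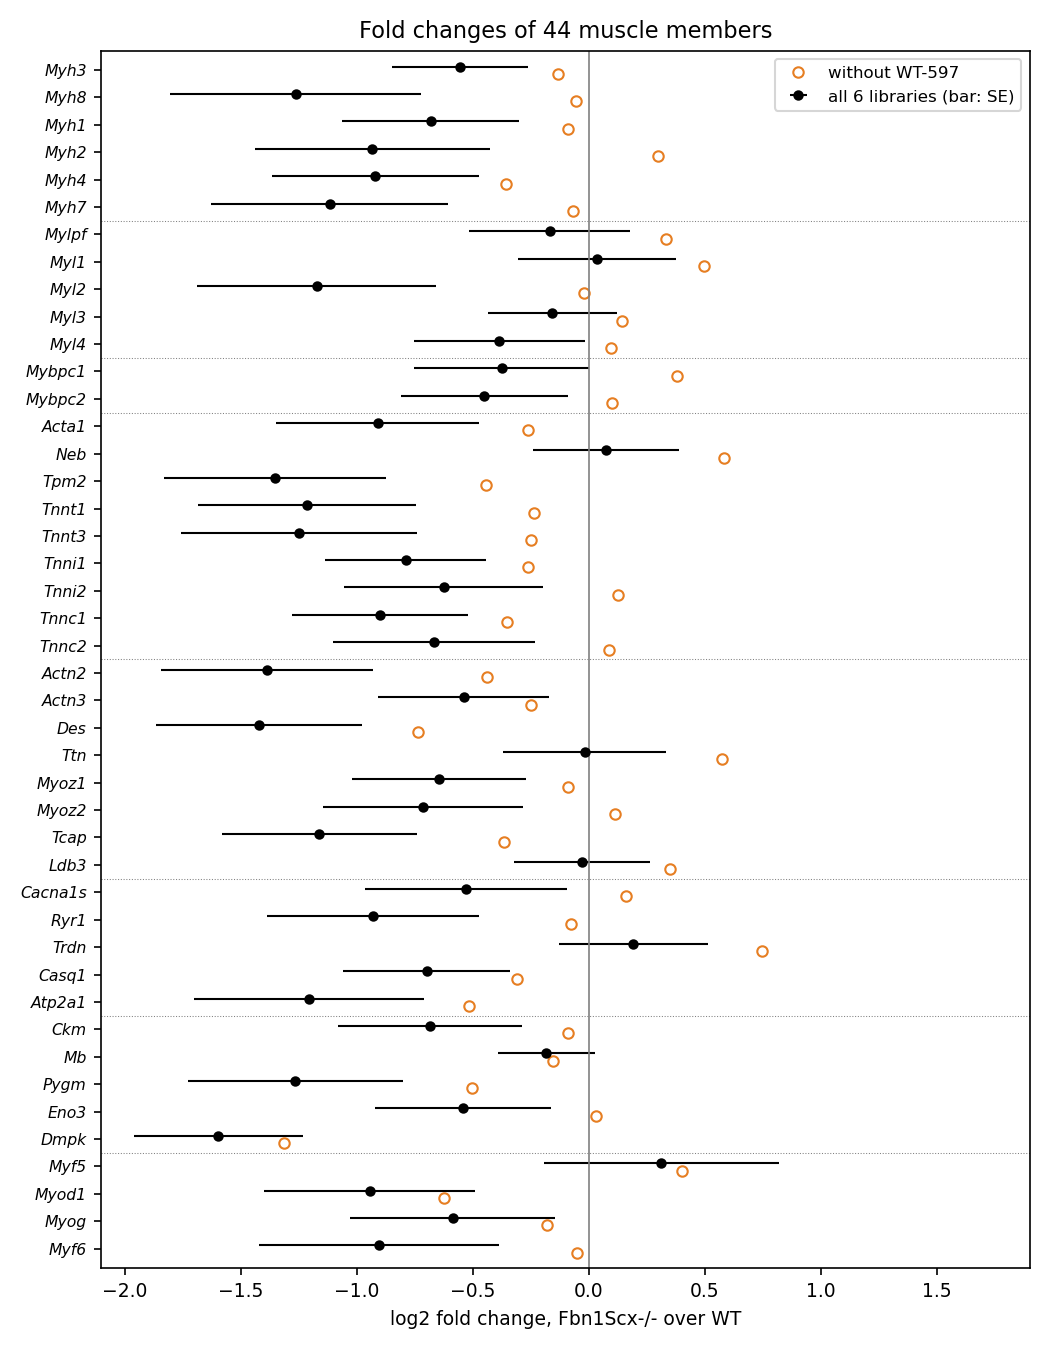
Log2 fold change of Fbn1Scx-/- over WT for the 44 tested genes, with black points and SE bars for all 6 libraries and open circles without library WT-597. With all libraries 40 of 44 points lie below 0, and without library WT-597 there are 27, with Dmpk at -1.31 the farthest from 0.

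The myogenic factors were rare and detected in every library, the stem cell factor included. Pax7, the stem cell factor, had 3, 5 and 5 counts in Fbn1Scx-/- and 2, 8 and 3 counts in WT, too few to be tested. Myf5 had 7, 8 and 26 counts in Fbn1Scx-/- and 15, 16 and 7 counts in WT, and was the one tested member whose highest library was not library WT-597. Myod1, the determination factor, had 1.32, 3.45 and 1.85 CPM in Fbn1Scx-/- and 4.27, 5.94 and 2.22 CPM in WT, with a log2 fold change of -0.94 (SE 0.45). Myog, which starts terminal differentiation, had 1.72, 6.60 and 7.30 CPM in Fbn1Scx-/- and 6.36, 11.8 and 5.27 CPM in WT, with a log2 fold change of -0.59 (SE 0.44). Myf6, the factor that remains in mature fibres, had 2.11, 4.80 and 4.42 CPM in Fbn1Scx-/- and 5.41, 13.4 and 2.08 CPM in WT. Myod1, Myog and Myf6 were all highest in library WT-597, and library WT-795 lay among the Fbn1Scx-/- values or below them.

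The balance of myogenic factors to structural muscle RNA did not separate the groups. The 5 factors summed to 6.47, 16.8 and 16.8 CPM in Fbn1Scx-/- and 17.7, 33.4 and 10.9 CPM in WT. Their log2 ratio to the 40 structural members was -9.26, -8.84 and -8.75 in Fbn1Scx-/- and -8.58, -8.93 and -8.84 in WT. The means were -8.95 ± 0.271 in Fbn1Scx-/- and -8.78 ± 0.185 in WT (SD, n = 3 each), and the lowest ratio was in library mut-596.

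By fibre class, the 13 fast members had a median log2 fold change of -0.67, the 8 slow members -0.85 and the 3 developmental members -0.56. The 8 slow members were all below 0, as were 12 of the 13 fast members, so no class stood apart in its direction. Without library WT-597 the medians were -0.09 for the fast, -0.04 for the slow and -0.06 for the developmental members.

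Among the 65 other muscle genes 57 were tested, none passed the adjusted p in edgeR, and 8 were at an unadjusted p under 0.05, all lower in Fbn1Scx-/-, against 7.12% of all genes in that direction. DESeq2 called 1 of them, Csrp3, muscle LIM protein, at an adjusted p of 0.049, against 0.438% of the genes to which it gave an adjusted p. Their median log2 fold change was -0.49, with 45 of 57 below 0, against 49.1% of all genes. Csrp3 had 17.2, 21.3 and 27.0 CPM in Fbn1Scx-/- and 39.7, 89.8 and 30.8 CPM in WT, so the groups did not overlap, and its log2 fold change was -1.29 (SE 0.34). Pdlim3, an actinin-binding Z-disc protein, had 7.92, 14.5 and 20.0 CPM in Fbn1Scx-/- and 28.1, 46.6 and 14.5 CPM in WT. Xirp1, a protein of sites of fibre repair and of the myotendinous junction, had 0.924, 1.35 and 0.823 CPM in Fbn1Scx-/- and 2.18, 7.45 and 0.970 CPM in WT. Chrna1, the acetylcholine receptor subunit of the neuromuscular junction, had 2.38, 3.60 and 4.11 CPM in Fbn1Scx-/- and 7.88, 13.7 and 2.91 CPM in WT. In these 3 genes libraries WT-596 and WT-597 were above all Fbn1Scx-/- libraries, and library WT-795 was not.

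None of the 4 most abundant genes of that list was at an unadjusted p under 0.05. Casq2, the slow and cardiac calsequestrin, ranged from 47.5 to 75.8 CPM in Fbn1Scx-/- and from 48.2 to 83.0 CPM in WT. Sln, sarcolipin, which restrains the calcium pump and is common in neonatal muscle, ranged from 135 to 175 CPM in Fbn1Scx-/- and from 104 to 204 CPM in WT. Pgam2, muscle phosphoglycerate mutase, ranged from 38.6 to 128 CPM in Fbn1Scx-/- and from 70.8 to 194 CPM in WT. Mef2c, a partner of the myogenic factors that bone and vessel cells also use, had 454, 443 and 414 CPM in Fbn1Scx-/- and 278, 334 and 433 CPM in WT and did not follow the muscle sum.

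Composition within the muscle signal was examined by setting each member against the sum of the other members in the same library. Acta1, Tpm2, Tnnt1, Tnni1, Tnnc1, Actn2, Des, Tcap and Dmpk were lower in every Fbn1Scx-/- library than in every WT library by this ratio, or 9 of 45 members, against 0.426% of all tested genes. Myl1, Mybpc1 and Trdn were higher, or 3 of 45, against 0.732% of all genes. For a gene outside muscle this ratio carries the spread of the muscle sum, so the shares of members and of all genes are not like for like. Dmpk differed by -0.96 on the log2 scale, Des by -0.77 and Tpm2 by -0.64, while Trdn differed by 0.76 and Myl1 by 0.61. With the mean level of the other muscle list as a covariate in edgeR, the members' median log2 fold change was -0.13, with 28 of 44 below 0 against 47.2% of all genes and 5 at an unadjusted p under 0.05 against 6.07%; none passed the adjusted p.

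Base composition moved with these differences. Across the 44 tested members the log2 fold change and the GC content of the transcript had a Spearman rho of -0.55, and over 15701 genes rho was -0.62, both descriptions of genes that share the same 6 libraries. The members' median GC content was 53.9%, against 49.1% over all genes, and Dmpk was at 60.8%, Tcap at 61.3% and Trdn at 36.8%. With offsets for GC content in each library the median log2 fold change of the members was -0.47, rho was -0.19, and 8 members were at an unadjusted p under 0.05 against 5.94% of all genes. With the presence of Xist as a covariate the median was -0.53, with 5 members at an unadjusted p under 0.05 against 3.12% of all genes. The parts of base composition and of sex in these differences were not tested beyond these fits.

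Annotation overlap limits some of these values. Of the 45 members 18 overlap 22 other genes, all on the opposite strand, and whether counting used strand is not known, so reads of such partners cannot be told apart. For the partners that were tested, counts over the member's counts ran from 1.10 to 1.17 over the 6 libraries for Ube2c and Tnnc2, 0.354 to 0.512 for Rabep2 and Atp2a1, 0.437 to 0.656 for A930016O22Rik and Ckm, 0.192 to 0.349 for Myhas and Myh1, 0.154 to 0.50 for 9430073C21Rik and Myh2, 0.205 to 0.408 for Mhrt and Myh7, 0.456 to 0.737 for Gm49540 and Mb, 0.588 to 0.781 for Gm37759 and Cacna1s, 0.0909 to 0.126 for Gm17224 and Casq1, and 2.73 to 8.81 for Pth1r and Myl3. Dmpk overlaps no other annotated gene that had counts.

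The authors' deposited table lists 1643 genes, 1114 with lower and 529 with higher values in Fbn1Scx-/-, and holds 7.59% of the genes tested here. It lists 4 of the 45 members, all lower. The log2 fold changes in the authors' deposited table were -1.61 for Dmpk, -1.42 for Des, -0.90 for Tnnc1 and -0.79 for Tnni1. The authors' deposited table also lists 10 of the 65 other muscle genes, all lower, among them Xirp1, Chrna1, Csrp3 and Pdlim3. In the DESeq2 fit made here 1640 genes were at an unadjusted p under 0.05, and 20 passed the adjusted p of 0.05. All the listed members and other muscle genes were at an unadjusted p under 0.05 in that fit, up to 0.0456 for Pfkm. Of them only Csrp3 passed the adjusted p.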

How the data were processed

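The values are counts per gene in 6 RNA-seq libraries of limb bone perichondrium. Total RNA came from a Qiagen RNeasy micro kit and libraries from the Smart-seq V4 low input and Nextera XT kits, per the labels' protocols. The deposited table holds raw counts for 55536 genes; its column names carry coordinate-sorted alignment files, per the file headers, and the submitters' processing notes name build GRCm38.p6 and DESeq2. The counter's settings for strand and for reads that match several genes are not given in those sources. The authors also deposited log2 fold changes of mutant over WT for 1643 genes, without samples, and these equal the log2 fold changes of a DESeq2 fit to the counts.

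From the counts, edgeR 4.0.16 (R 4.3.3) was used with filterByExpr, TMM scaling, glmQLFit and a two-sided glmQLFTest, with Benjamini-Hochberg adjustment over the 15712 genes that passed the filter; the threshold was an adjusted p of 0.05. The fit took all 6 libraries, with genotype as the only term. Alternatives were DESeq2 1.42.0, limma 3.58.1 with sample weights, other scalings and filters, each library left out, the title number as a block, offsets from a loess on GC content with span 0.3, the mean of 57 other muscle genes as a covariate, and Xist as a covariate. Scripts were tested on simulated data. Library totals were 7209217 to 10316017 counts. Shares of isoforms used counts per kilobase of the principal coding transcript in GENCODE M21, with 95% Wilson intervals on the counts.

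The members and gene lists were chosen with earlier results of these data known. Named with values in every library are all heavy chains and myogenic factors, and in each other role the member with the highest mean CPM and the 2 with the smallest unadjusted p; of the other muscle genes, the 4 with the smallest p and the 4 with the highest mean CPM. Neb, Trdn, Mb and the pairs with overlapping genes were singled out after their values were seen. Whether the shared title numbers pair the libraries was checked by the correlation of deviations from the group means.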

Additional observations from a re-analysis of the deposited data

How the results depend on the processing

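Amounts of muscle RNA rest on 3 libraries a group, with WT-597 far above the rest. With no filter beyond a count above 0, 270 genes, 13 members and 7 other muscle genes passed the adjusted p, and 30 members were at an unadjusted p under 0.05, against 0.742% and 5.89% of all genes lower. DESeq2 called 20 genes, no member and 1 other muscle gene, with 4 members at an unadjusted p under 0.05. That count was 8 with GC offsets, 5 with the muscle covariate and 5 with the Xist covariate, under which 0 genes passed. Leaving out each library in turn gave 1 to 1517 genes, 0 to 20 members and 0 to 9 other muscle genes past the threshold, and 3 to 32 members at an unadjusted p under 0.05; the highest of each came without library WT-795. Without libraries mut-596 and WT-597 together, a choice made after seeing the data, 2 genes passed, 4 members were at an unadjusted p under 0.05, 1 lower and 3 higher, against 2.78% of all genes, and the members' median log2 fold change was 0.075. The summed level of the members and the ratio of myogenic factors stayed within 1 SD between replicates under their alternatives. For the summed level that limit is wide, as the SD in WT was 6086 CPM on a mean of 9372 CPM. Its ratio of Fbn1Scx-/- to WT means was 0.672 with all libraries and 1.07 without library WT-597. Levels of the heavy chain and slow shares depended on the length used. Myh8 has 6149 bases in the transcript and 11772 in the union of its exons, against 6081 and 6353 for Myh1. With exon-union lengths the share of Myh8 is therefore smaller. Tnni1 in library WT-596 took 7.08% of its pair per kilobase but 10.2% of the counts.

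Deviations of same-numbered libraries from their group means correlated at -0.17 for mut-596 and WT-596, 0.23 for mut-597 and WT-597 and -0.20 for mut-795 and WT-795. Libraries with unlike numbers ran from -0.28 for mut-596 and WT-597 to 0.37 for mut-596 and WT-795. With so few libraries a group these correlations cannot decide whether the title numbers mark pairs. With the replicate block 1 gene passed and the members' median log2 fold change was -0.58, with 19 at an unadjusted p under 0.05, all lower, against 5.65% of all genes in that direction; with the replicate block and GC offsets 4 genes passed and no member.

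Some named genes changed sign, none of them past the threshold in the fit to all 6 libraries; the cause was not tested. Without libraries mut-596 and WT-597 the log2 fold changes were 0.26 for Myh8, 0.11 for Myh2, 0.40 for Myl4, 0.50 for Mybpc1, 0.10 for Mybpc2, 0.047 for Acta1, 0.031 for Tnnt1, 0.58 for Ttn, 0.18 for Ryr1, 0.15 for Ckm, 0.22 for Myog, 0.21 for Myf6 and 0.66 for Pgam2. With the muscle covariate they were 0.12 for Myh2, 0.072 for Myl4, 0.31 for Mybpc1, 0.064 for Mybpc2, 0.39 for Ttn and 0.22 for Pgam2. With GC offsets they were -0.059 for Myf5, -0.016 for Casq2, -0.042 for Sln, 0.066 for Pgam2 and -0.025 for Mef2c. With the replicate block and GC offsets they were 0.0072 for Mybpc2, 0.085 for Ttn, -0.13 for Myf5, -0.00058 for Casq2, 0.044 for Pgam2 and -0.019 for Mef2c, and with the replicate block alone 0.15 for Ttn. Limma with sample weights gave 0.53 for Ttn and 0.052 for Pgam2, the Xist covariate 0.087 for Myl4 and upper-quartile scaling -0.0055 for Myl1. Leaving out each library in turn gave -1.34 to 0.30 for Myh2, -0.19 to 0.50 for Myl1, -0.71 to 0.095 for Myl4, -0.71 to 0.38 for Mybpc1, -0.78 to 0.10 for Mybpc2, -0.35 to 0.57 for Ttn, -0.32 to 0.57 for Myf5, -0.10 to 0.33 for Casq2, -0.18 to 0.28 for Sln and -0.65 to 0.31 for Pgam2; all of these upper ends but that of Myf5 came without library WT-597.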

Other observations

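Ube2c, the ubiquitin-conjugating enzyme of mitotic exit, had counts that followed the fast troponin Tnnc2, which it overlaps on the opposite strand. Ube2c had 223, 596.3 and 573 CPM in Fbn1Scx-/-, against 476, 1297 and 391 CPM in WT. Tnnc2 had 199, 526 and 490 CPM in Fbn1Scx-/- and 409, 1177 and 341 CPM in WT. The log2 fold changes were -0.64 for Ube2c and -0.67 for Tnnc2. Rabep2, an endosomal protein that overlaps Atp2a1, had a log2 fold change of -1.19, against -1.20 for Atp2a1.

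Some genes outside both muscle lists had levels over the 6 libraries like the summed members. Among 13991 genes with a mean of at least 2 CPM, 3.92% had a Pearson's r over 0.9 with the summed level, as did 26 of 43 members and 21 of 55 other muscle genes; all share the same libraries, and library WT-597 lies far from the rest. The highest outside both lists were Zfand3, 1110002E22Rik, Gadd45gip1, Ndufab1, Gm7618, Gm10126, Hfe2, Gm10059, Vegfb and Myh13. Hfe2, hemojuvelin, a BMP co-receptor known from muscle and liver, had 8.19, 15 and 13.3 CPM in Fbn1Scx-/- and 11.5, 26.5 and 10.4 CPM in WT. Myh13, the superfast heavy chain of eye and larynx muscles, had 1.06, 3.45 and 2.37 CPM in Fbn1Scx-/- and 2.75, 8.78 and 1.39 CPM in WT. Among the other muscle genes the highest were Tmem38a, Hrc, Vgll2, Cox6a2, Cacng1, Srl, Pfkm, Jsrp1, Myo18b and Cacnb1. Without libraries mut-596 and WT-597, r over the 4 other libraries was 0.98 for Zfand3, 0.90 for Hfe2, 0.94 for Myh13, 0.98 for Tmem38a and 0.63 for Pfkm.

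Markers of other cell types gave summed levels that overlapped between the groups. Endothelial markers summed to 195 to 244 CPM in Fbn1Scx-/- and 195 to 226 CPM in WT, cartilage markers to 335 to 398 CPM in Fbn1Scx-/- and 365 to 524 CPM in WT, and bone markers to 2275 to 3354 CPM in Fbn1Scx-/- and 2894 to 3388 CPM in WT. Schwann cell markers summed to 209 to 320 CPM in Fbn1Scx-/- and 215 to 228 CPM in WT, and fat markers to 177 to 318 CPM in Fbn1Scx-/- and 123 to 252 CPM in WT.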
